A study of Mus musculus with 12 samples.

Results

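The genes described here are the 10 IGF axis genes of the deposited table: the ligands Igf1 and Igf2, the receptor Igf1r, the binding proteins Igfbp2, Igfbp3, Igfbp4, Igfbp5, Igfbp6 and Igfbp7, and the imprinted noncoding RNA H19. They were chosen by name from 21743 genes, and all 10 were found. Their RNA was measured by Drop-seq, which counts each captured molecule once by its unique molecular identifier (UMI), in 21157 cells of 2 mice. Both mice carried MMTV-Cre, whose promoter drives Cre mainly in mammary epithelium, and Brca1flox/flox on a mixed C57BL/6 and 129/Sv background, so the glands had the same genotype as the tumors and no group had an intact control genotype. The mammary gland of mouse 1 (MG1) gave 2 libraries with 818 cells, that of mouse 2 (MG2) gave 2 libraries with 2335 cells, the tumor of mouse 1 (MT1) gave 5 libraries with 7690 cells and the tumor of mouse 2 (MT2) gave 3 libraries with 10314 cells. The study's methods give an age range for mice whose normal glands were dissociated and a usual time of tumor onset, but no age for these 2 tumor-bearing mice. Tissue was digested in a medium that held insulin, EGF and hydrocortisone, and hematopoietic and endothelial cells were depleted before capture.

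IGF1 and IGF2 are secreted growth factors that signal through the receptor tyrosine kinase IGF1R, and in the mammary gland IGF1 acts on ductal growth and cell survival. The IGFBP family binds the ligands outside the cell, holding them back or carrying them to the receptor, and several members also act without them. H19 and Igf2 are neighbors under shared imprinting control, with H19 normally read from the maternal and Igf2 from the paternal allele.

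In GENCODE M21 (GRCm38), H19 lies at chr7:142575529-142578143 on the minus strand as a lincRNA, and Igf2 at chr7:142650766-142666816 on the same strand, 72.6 kb away. Igfbp2 (chr1:72824503-72852474, plus strand) and Igfbp5 (chr1:72857932-72874884, minus strand) are also neighbors, with 5.46 kb between their ends. Igfbp4 lies at chr11:99041244-99054392, Igfbp7 at chr5:77349240-77408041, Igfbp3 at chr11:7206086-7213923, Igfbp6 at chr15:102144362-102149511, Igf1 at chr10:87858265-87937042 and Igf1r at chr7:67952827-68233668. Igf2 overlaps the antisense gene Igf2os and Igfbp7 overlaps Polr2b on the other strand. Whether the counting used strand is not given in the sources used here, so counts of these genes may hold reads of their partner.

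The H19 transcript carries the miR-675 hairpin, and its mature products are shown because a H19 count marks their precursor, although Drop-seq measured neither of them. The sequences are those of RefSeq (GRCm38.p6), with the seed (bases 2 to 8) in capitals, and the seeds differ from each other.
mmu-miR-675-5p: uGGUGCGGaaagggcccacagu
mmu-miR-675-3p: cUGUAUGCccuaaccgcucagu

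Promoters of Igfbp4, Igfbp7 and Igfbp5 are shown because these binding proteins moved in different directions in the tumor of mouse 2. Each runs from 250 bases before to 50 bases after the RefSeq start site (GRCm38.p6) and is written 5′ to 3′ on the gene's strand, with matches on either strand to the TATA box letters TATAAA, to the letters CCAAT of another common promoter element and to the GC box letters GGGCGG in capitals. The Igfbp4 promoter (chr11:99040994-99041293, plus strand) held TATAAA at position -28 from the start site, a motif found in 13.6% of 32817 promoters of this length. The Igfbp7 promoter (chr5:77407996-77408295, minus strand) held 4 GGGCGG matches, a motif found in 35.6% of promoters. The Igfbp5 promoter (chr1:72874816-72875115, minus strand) held none of these letters in this window. CpG dinucleotides numbered 27 for Igfbp4, 33 for Igfbp7 and 10 for Igfbp5, against a median of 7 over all promoters.
Igfbp4: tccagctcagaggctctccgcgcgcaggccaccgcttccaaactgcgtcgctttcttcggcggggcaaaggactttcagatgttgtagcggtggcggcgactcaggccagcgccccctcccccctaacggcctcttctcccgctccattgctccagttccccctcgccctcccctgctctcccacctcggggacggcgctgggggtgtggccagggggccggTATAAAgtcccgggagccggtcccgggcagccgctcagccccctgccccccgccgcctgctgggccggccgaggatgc
Igfbp7: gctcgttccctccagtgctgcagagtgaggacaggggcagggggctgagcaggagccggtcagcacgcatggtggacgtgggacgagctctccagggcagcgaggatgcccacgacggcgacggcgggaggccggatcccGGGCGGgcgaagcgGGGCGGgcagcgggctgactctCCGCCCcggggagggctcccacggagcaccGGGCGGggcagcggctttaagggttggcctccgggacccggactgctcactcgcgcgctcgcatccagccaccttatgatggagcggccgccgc
Igfbp5: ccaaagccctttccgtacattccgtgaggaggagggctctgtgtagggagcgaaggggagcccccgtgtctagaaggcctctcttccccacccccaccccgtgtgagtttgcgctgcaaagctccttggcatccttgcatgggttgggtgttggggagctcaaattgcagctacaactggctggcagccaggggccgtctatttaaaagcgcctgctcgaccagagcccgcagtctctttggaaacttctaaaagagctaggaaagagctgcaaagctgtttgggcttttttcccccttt

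The libraries held between 693333 and 14841414 UMIs, and the smallest, MG1 replicate 2, had only 105 cells. Clustering without the 10 genes gave 11 clusters. Cells of MT2 formed 2 clusters (1 and 2) without a marker-based name and MT1 formed 2 epithelial-like clusters (3 and 4), while cluster 5, also unnamed, held 1348 MT1 cells and 44 MG2 cells. The gland gave luminal hormone-sensing-like, luminal secretory-like and basal-like cells. Fibroblast-like (688 cells), endothelial-like (246) and immune-like (187) cells are called stromal here. Summed epithelial markers outside the stroma were 680 to 917 CPM in MT2 libraries against 11473 to 16609 CPM in gland libraries, far below the glands. In MT1 libraries they were 7559 to 9724 CPM, against 12142 to 16609 CPM in MG1. Summed mural markers were 4.70 to 18.9 CPM in MT1 and 41.6 to 55.3 CPM in MG1. Immune markers were 72.2 to 158 CPM in MT1 and 16.6 to 44.9 CPM in MG1. The part of these markers in the results below was not tested. Brca1 had 0 UMIs in both MG1 libraries, 10 and 11 UMIs in the MG2 libraries (2.26 CPM in replicate 1) and between 7.42 and 17.2 CPM in tumor libraries; a tag at the 3′ end does not show whether the floxed part was lost.

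To ask how the IGF axis differed between tumor and gland of the same animal, counts of the cells outside the stromal clusters were summed per library. In such sums, fewer cells of a type and less RNA per cell cannot be told apart. Igfbp4 and Igfbp7 rose in both tumors and Igfbp3 fell in both. Igfbp5 fell in MT2 and was not called in MT1, Igfbp6 fell in MT1, and Igfbp2 rose in MT1. Igf1 was called higher in MT2 at a low level, and whether that level is background was not tested. Igfbp2 and H19 fell in MT2, and the rise of H19 in MT1 was close to the threshold. Summed over 11 mesenchymal markers, levels moved with the rise of Igfbp4 and Igfbp7, from 356 to 383 CPM in MG1 to 1443 to 2615 CPM in MT1 and from 356 to 502 CPM in MG2 to 7505 to 7756 CPM in MT2. Their part in these results was not tested. The low-count filter was passed by 9 of the 10 genes, all but Igf2. In MT1 against MG1, 6 of 9 were called by the edgeR quasi-likelihood test (adjusted p under 0.05), 4 higher and 2 lower, where 59.3% of the 13654 genes tested were called. In MT2 against MG2, 7 of 9 were called, 3 higher and 4 lower, against a background of 67%. Both counts are near the background. Of the members called in mouse 1, the higher ones stand beside a background of 32.2% of genes called higher and the lower ones beside 27.1%; in mouse 2 these were 32.7% and 34.3%. Libraries of tumor and gland did not overlap for 5 of 9 genes in mouse 1 (62.4% of all genes tested) and 8 of 9 in mouse 2 (80.9%). Levels are counts scaled to library totals by TMM (CPM). Since each group is 1 tissue of 1 animal, its libraries show how far captures of that tissue vary, and variation from mouse to mouse does not enter these p-values.

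**Figure D1:**
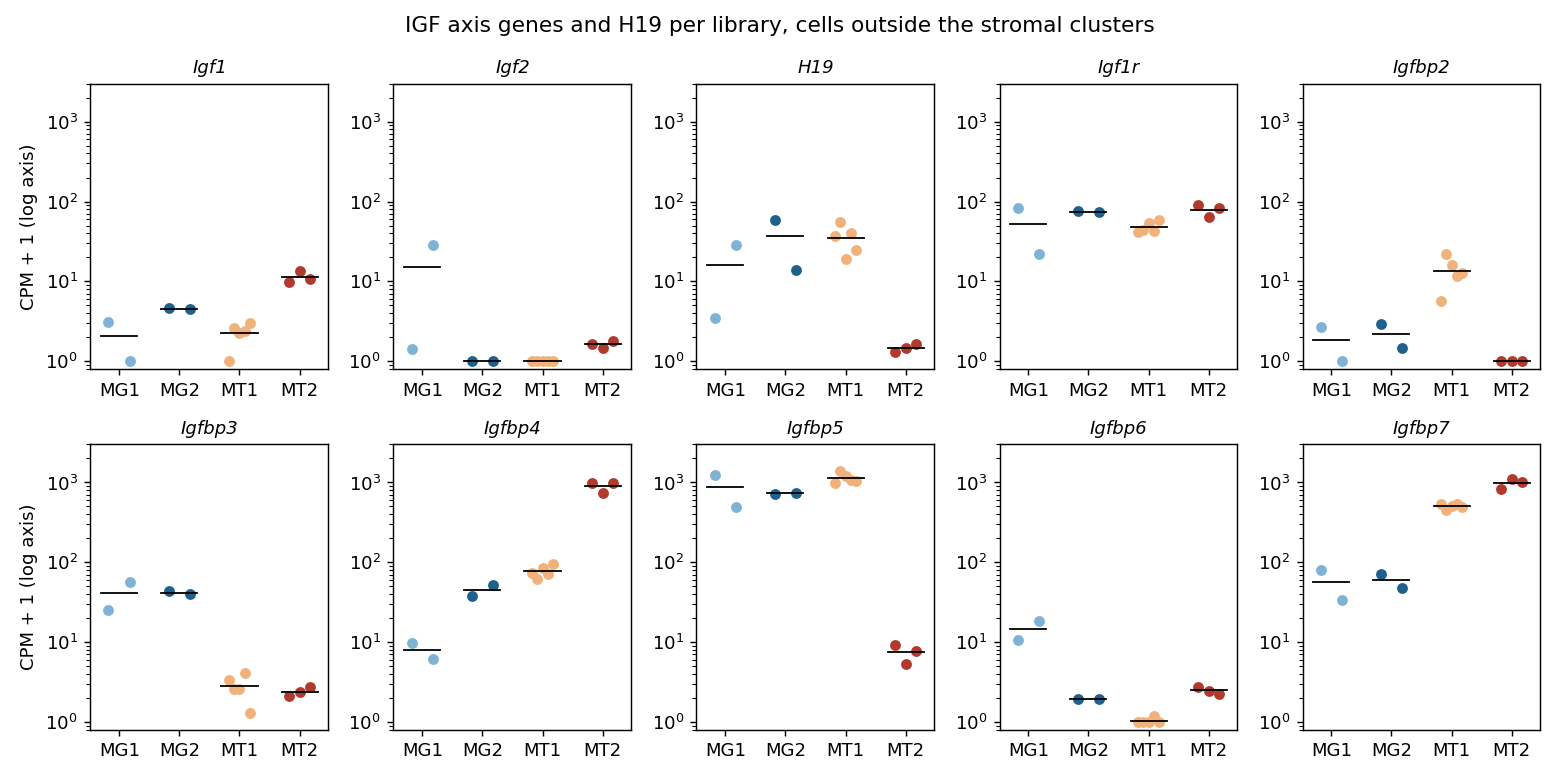
CPM + 1 of each gene (log axis) in each of the 12 libraries, cells outside the stromal clusters; points are libraries and bars are group means. Igfbp4 and Igfbp7 sit higher in every tumor library than in every gland library, Igfbp5 is low in MT2 only, and Igfbp2 has 0 UMIs in all 3 MT2 libraries.

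Of the ligands, Igf1 was sparse outside the stroma. It measured 2.08 and 0 CPM in the MG1 libraries, 3.59 and 3.53 CPM in MG2, between 0 and 2.04 CPM in the 5 MT1 libraries, and 8.84, 12.4 and 9.67 CPM in MT2. The MT2 libraries all lay above the MG2 libraries, whereas MT1 and MG1 overlapped. Igf1 rose in MT2 by a log2 fold change of 1.53 (SE 0.35, adjusted p = 9.53e-04), and in MT1 the change was -0.28 (95% interval -1.77 to 1.21). A UMI of Igf1 was found in 3.54% of MT2 cells outside the stroma (exact 95% interval 3.18 to 3.93%). The share was 3.37% in immune-like and 4.44% in endothelial-like cells of MT2. Whether these shares are background was not tested. Summed over all 10 fibroblast markers, levels moved with Igf1, from 301 to 313 CPM in MG2 to 3532 to 3908 CPM in MT2. The part of these markers in the result was not tested. With stromal cells kept in, the Igf1 change was -1.73 (called) in mouse 1 and turned to -0.36 in mouse 2, and the difference between the mice was -1.37 (called).

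Igf2 was nearly absent. MG1 had 17 UMIs in 4 hormone-sensing-like cells, and 14 of them lay in a single cell of MG1 replicate 2. MG2 and MT1 had 0 UMIs outside the stroma, which allows up to 0.142% and 0.040% of cells with a UMI, taking 3 cells as the limit. MT2 had 26 UMIs in 26 cells, one in each. No fold change was fitted.

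The receptor Igf1r was found in all groups. It measured 82.8 and 20.7 CPM in MG1, 74.2 and 72.7 CPM in MG2, 40.5, 42.4, 52.2, 41.3 and 58.5 CPM in MT1, and 88.9, 63.5 and 82.7 CPM in MT2. The MG1 libraries lay on both sides of all MT1 libraries. Neither tumor differed detectably from its gland, with log2 fold changes of -0.36 (95% interval -0.91 to 0.19) in mouse 1 and 0.09 (-0.43 to 0.61) in mouse 2. The mouse 1 value rested on which gland library was used, since it was 1.31 without MG1 replicate 1 and -0.79, called lower, without MG1 replicate 2. MT1 lay below MT2 by a log2 fold change of -0.73 (SE 0.21, edgeR adjusted p = 0.00547), with no overlap.

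Igfbp4, a binding protein that mostly restrains IGF and is cut by the protease PAPP-A, measured 8.74 and 5.18 CPM in MG1, 37.1 and 50.6 CPM in MG2, 71.6, 61.2, 83.4, 69.9 and 93.5 CPM in MT1, and 975, 731 and 992 CPM in MT2. No group overlapped with another. It rose by a log2 fold change of 3.27 (SE 0.32, adjusted p = 1.69e-07) in mouse 1 and 4.36 (SE 0.24, adjusted p = 1.85e-11) in mouse 2. With stromal cells kept in, the mouse 1 value was 0.80. In MG2, 321 of the 370 UMIs outside the stroma lay in the 44 cells of cluster 5, and the mouse 2 value was 7.20 with gland cells in tumor clusters left out. A UMI was found in 81.7% of MT2 cells outside the stroma (exact 95% interval 80.9 to 82.4%) and in 3.98% of MG2 cells (3.19 to 4.91%). The immune-like cells of MT2 reached 45.5% at a median of 2295 UMIs, where clusters 1 and 2 had medians of 2949 and 3521. Thinned to 500 UMIs per cell, the shares were 30.7% in MT2 and 1.18% in MG2.

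Igfbp7, a secreted protein with weak IGF binding that is found in vessel walls and matrix, rose alongside. It measured 79.5 and 32.8 CPM in MG1, 69.7 and 46.8 CPM in MG2, 538, 449, 512, 536 and 497 CPM in MT1, and 825, 1117 and 1001 CPM in MT2. Every tumor library lay above every gland library. The log2 fold changes were 3.02 (SE 0.26, adjusted p = 5.57e-08) in mouse 1 and 4.07 (SE 0.27, adjusted p = 2.76e-10) in mouse 2, and 1.86 and 2.26 with stromal cells kept in. The share of cells with a UMI was 88% in MT2 and 13.5% in MG2, beside 37.6% in immune-like cells of MT2.

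Igfbp5, a matrix-bound binding protein that rises during involution of the gland, separated the tumors. It measured 1242 and 496 CPM in MG1, 725 and 742 CPM in MG2, 981, 1400, 1196, 1069 and 1045 CPM in MT1, and 8.25, 4.28 and 6.84 CPM in MT2. MT2 lay far below all other libraries, while MT1 and MG1 overlapped. Of the 255 MT2 UMIs outside the stroma, 62 lay in 1 epithelial-like cell of MT2 replicate 1. Clusters 1 and 2, formed by MT2 cells, had 41 and 10 UMIs (1.77 and 0.56 CPM). Igfbp5 fell by 6.82 on the log2 scale in mouse 2 (SE 0.34, adjusted p = 4.62e-12). In mouse 1 the change was 0.37 (95% interval -0.14 to 0.88), 1.31 and called without MG1 replicate 1 and -0.11 without MG1 replicate 2. A UMI was found in 0.48% of MT2 cells outside the stroma (exact 95% interval 0.353 to 0.637%) and in 56% of MT1 cells.

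Its neighbor Igfbp2, which binds IGF2 with high affinity, was low in all glands. It measured 1.66 and 0 CPM in MG1, 1.92 and 0.47 CPM in MG2, and 4.70, 20.8, 14.8, 10.8 and 11.6 CPM in MT1. All 3 MT2 libraries had 0 UMIs. MT1 lay above every gland library, with a log2 fold change of 3.26 (SE 0.77, adjusted p = 0.00189). Without MG1 replicate 1 the only MG1 library left was at 0 UMIs, and the fitted value of 9.31 is no bound. MT2 was at least 17.2-fold lower than MG2 and at least 177-fold lower than MT1, taking 3 counts over the group as the floor. The mouse 2 call rested on 10 UMIs in MG2 and was lost without MG2 replicate 1, which leaves 2 UMIs, under the floor, so that no fold can be given. The fitted value was -2.73 with stromal cells kept in. In MT1, 145 of the 194 cells with an Igfbp2 UMI also held one of Igfbp5, which was found in 4272 of all 7690 MT1 cells.

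Igfbp3, the main carrier of IGF in serum, fell in both tumors outside the stroma. It measured 24.6 and 55.3 CPM in MG1, 42.1 and 38.8 CPM in MG2, 2.35, 1.57, 1.56, 3.13 and 0.29 CPM in MT1, and 1.11, 1.37 and 1.73 CPM in MT2. Every tumor library lay below every gland library. It fell by 4.23 on the log2 scale in mouse 1 (SE 0.40, adjusted p = 1.49e-07) and by 4.83 in mouse 2 (SE 0.33, adjusted p = 4.41e-10), where it was -1.57 with stromal cells kept in. The gland level came largely from basal-like cells, which held 192 CPM in MG1 and 335 CPM in MG2, and the tumors had 4 basal-like cells between them.

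Igfbp6, a binding protein that prefers IGF2, measured 9.57 and 17.3 CPM in MG1, 0.96 and 0.94 CPM in MG2, 1.77, 1.45 and 1.26 CPM in MT2, and 1 UMI in all MT1 libraries together. It fell by 7.34 on the log2 scale in mouse 1 (SE 0.67, adjusted p = 8.80e-08). With 33 UMIs in MG1, the pooled level was 202-fold higher there than in MT1 (exact 95% interval 33.8 to 8216, counting error only). MT2 against MG2 did not pass the test at 0.64 (95% interval -0.41 to 1.69), and with stromal cells kept in the change was -2.22.

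H19 measured 2.50 and 27.6 CPM in MG1, 58.4 and 12.9 CPM in MG2, 35.8, 54.5, 17.8, 38.8 and 23.9 CPM in MT1, and 0.29, 0.46 and 0.63 CPM in MT2. MT1 overlapped with MG1, and MT2 lay below all other libraries. It fell by 6.22 on the log2 scale in mouse 2 (SE 0.70, adjusted p = 3.77e-07), and was at -2.95 with stromal cells kept in. In mouse 1 it was higher by 1.99 (SE 0.79, adjusted p = 0.0378). That call ended under RLE size factors (1.86), DESeq2 (1.12), with stromal cells kept in (1.92), with the highest 5% of doublet scores left out (1.93), and without MG1 replicate 1 (0.37). It also ended without any one of MT1 replicates 1, 2 and 4 and MT2 replicates 1 and 3 (1.78 to 1.97), and without MG1 replicate 2 the value was 3.73.

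Few cells carried the H19 molecules. MG2 had 299 UMIs in 26 of 2335 cells, and 1 cell of cluster 5 in MG2 replicate 1 held 108 of them (36.1%). MT1 had 624 UMIs in 200 cells and its highest cell held 68. MT2 had 171 UMIs in 56 cells, of which 151 UMIs lay in fibroblast-like cells, and its first 5 cells held 50.3%. Over all libraries 20 cells had 10 or more H19 UMIs, and none of these had a UMI of Igf2. No cell held both RNAs among 300 with H19 and 30 with Igf2. Only MG1 (18 cells with H19 and 4 with Igf2, of 818) and MT2 (56 and 26, of 10314) had both. With so few positive cells, shared cells would be rare by chance, so exclusion cannot be read from this.

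**Figure D2:**
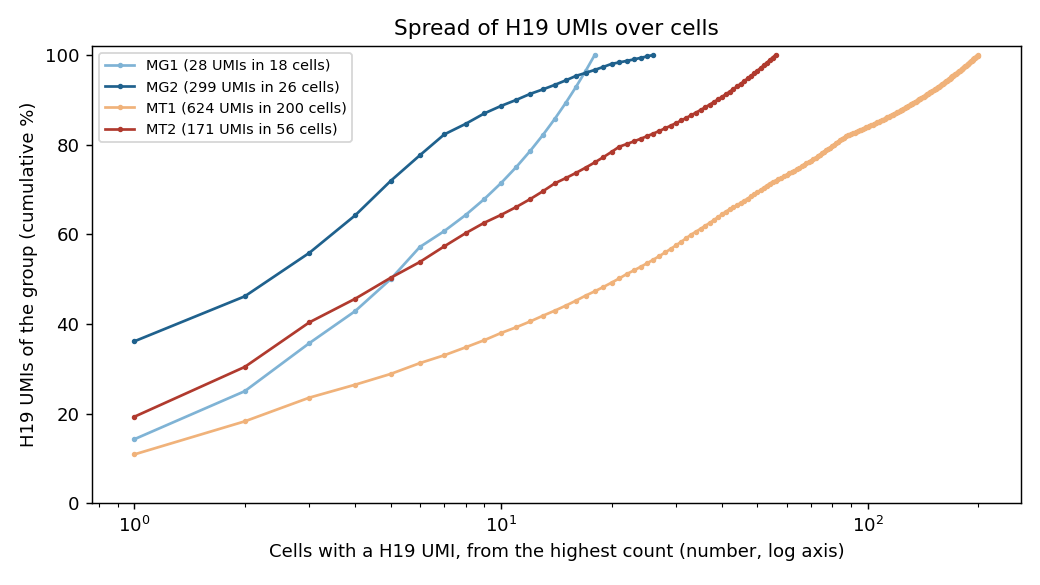
Cumulative share of the H19 UMIs of each group (%) against the number of cells with a H19 UMI, from the highest count (log axis); each line is a group. In MG2 the first cell holds 36.1% of the UMIs and the first 5 hold 71.9%, while in MT1 the first 5 hold 28.8%.

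The change from gland to tumor differed between the mice for 6 of 9 genes by the interaction contrast, where 43.4% of all genes were called, 26.4% higher and 17% lower. H19 (8.21; 4.87 with stromal cells kept in), Igfbp2 (9.08; 5.73) and Igfbp5 (7.19) had the higher log2 fold change in mouse 1, and Igfbp6 (-7.99; -3.71), Igfbp4 (-1.09) and Igfbp7 (-1.06) in mouse 2. The Igfbp4 and Igfbp7 differences had adjusted p = 0.0449 and 0.0156, and without MG1 replicate 1 they were -0.41 and -0.05 and not called. The Igfbp4 call also ended with no low-count filter (-1.11), with the highest 5% of doublet scores left out (-0.88), and without MG2 replicate 1, MT1 replicate 4, MT2 replicate 1 or MT2 replicate 3 (-1.05 to -1.01). Its value was -2.86 with stromal cells kept in and -3.53 with gland cells in tumor clusters left out. The Igfbp7 call also ended with stromal cells kept in (-0.40), with gland cells in tumor clusters left out (-0.47) and without MG2 replicate 2 (-0.96). The Igfbp2 values are fits over 0 UMIs in MT2. With MT2 at 3 counts over the group, its difference was at least 7.46 on the log2 scale from pooled levels. The value without MG1 replicate 1, 15.17, rests also on an MG1 library at 0 UMIs. Between the tumors themselves, 8 of 9 genes were called against a background of 68.4%, 3 higher in MT1 (35.3%) and 5 lower (33.1%), and the libraries of 8 of 9 did not overlap (63.2%); Igfbp3 was the exception at 0.37 (95% interval -0.47 to 1.21). With stromal cells kept in, Igfbp6 was not called there (-0.33). With the animal as replicate (2 mice, mouse as block), 0 of 9 genes and 0% of 14948 genes passed the edgeR test, with 2216 genes at an unadjusted p under 0.05. In that fit Igfbp3 was at -4.39, Igfbp4 at 3.90 and Igfbp7 at 3.54, each with adjusted p = 0.31. DESeq2 with the same block called these 3.

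**Figure D3:**
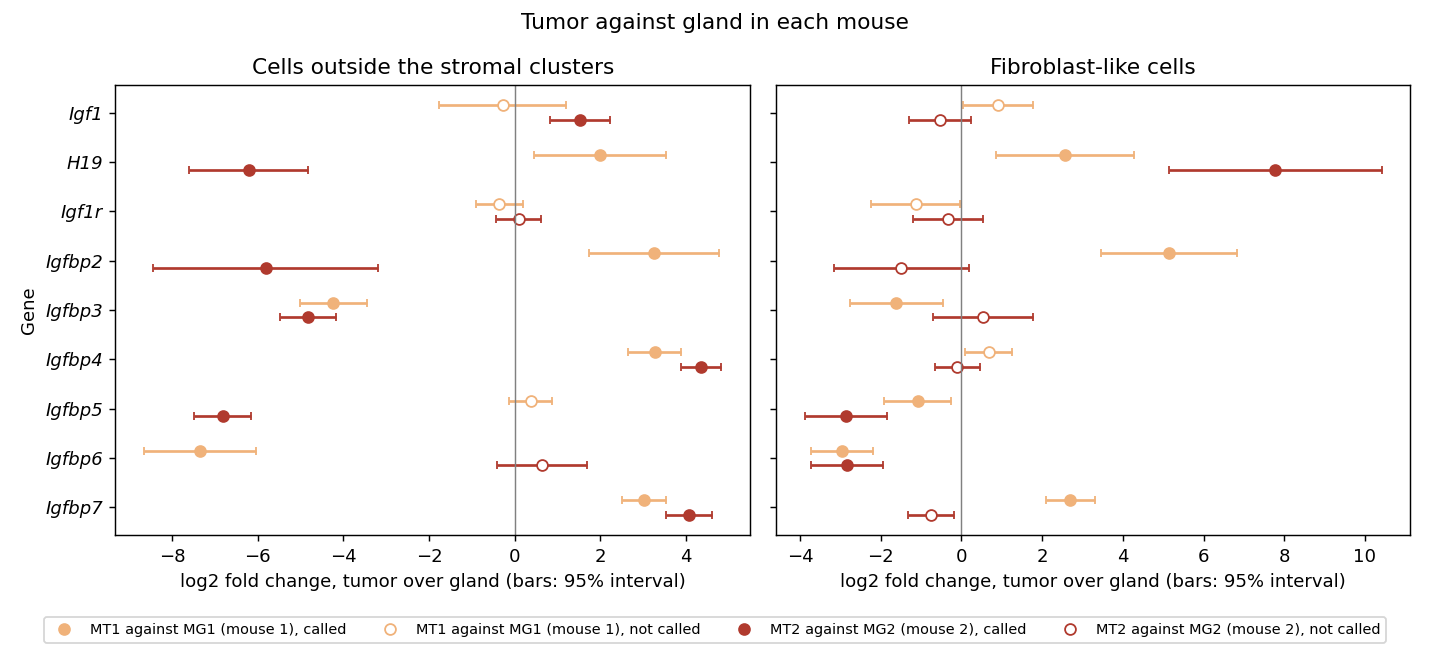
Log2 fold change of tumor over gland in each mouse with its 95% interval, for the 9 genes tested, outside the stroma (left) and in fibroblast-like cells (right); filled points were called. Outside the stroma Igfbp4, Igfbp7 and Igfbp3 lie on the same side of 0 in both mice, and the other 6 genes on opposite sides, with both values called only for H19 and Igfbp2.

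By cluster, values are CPM over the cells of a cluster and group and are given without a test, since clusters were made from the same cells. The level of Igf1 was highest in fibroblast-like cells. It reached 133 and 529 CPM there in the glands of mouse 1 and mouse 2 and 315 and 418 CPM in their tumors. These cells held 86.2% of the Igf1 UMIs of MG1 and 46.4% of those of MT2. In MT2, 405 of 778 Igf1 UMIs lay outside the stroma. Igf1r was highest in basal-like cells, with 199 CPM in MG1 and 175 CPM in MG2 and a UMI in 37.2% and 35.4% of cells. Luminal secretory-like cells followed with 75.7 and 95.1 CPM, and hormone-sensing-like cells had 26.4 and 39.7 CPM.

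Igfbp5 was higher in luminal secretory-like cells (1700 CPM in MG1, 1142 in MG2) and basal-like cells (1208 and 1255 CPM) than in hormone-sensing-like cells (330 and 354 CPM). Within MT1 it was 1982 CPM in cluster 3, 472 in cluster 4 and 160 in cluster 5. Igfbp4 was 20.8, 18.9 and 308 CPM in the same clusters. In fibroblast-like cells Igfbp4 was 299 and 692 CPM in MG1 and MG2 and 569 and 722 CPM in MT1 and MT2, and Igfbp5 was 1110 and 467 CPM in MG1 and MG2 and 649 and 70.6 CPM in MT1 and MT2. The 44 MG2 cells of cluster 5 had 1334 CPM of Igfbp4, 4.16 CPM of Igfbp5 and 565 CPM of H19, and 108 of their 136 H19 UMIs lay in 1 cell. Igfbp2 in MT1 was 25.7 CPM in cluster 3, 1.92 in cluster 4 and 565 in fibroblast-like cells.

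Endothelial-like cells, of which depletion left 246, also held Igfbp3, as did fibroblast-like cells (376 to 650 CPM over the 4 groups). Among libraries with 10 or more of them, Igfbp3 was 19.8 CPM in the MG1 library, 215 and 795 CPM in MG2, 1355, 1577, 586 and 1321 CPM in MT1, and 2237, 1083 and 3241 CPM in MT2. The MG2 and MT2 values did not overlap, and no test was made. Between MG2 and MT2, fibroblast markers in these cells went from 162 CPM (7 of 10 with a UMI) to 1347 CPM (8 of 10). Mural markers went from 156 to 524 CPM (5 of 9 in each). Mesenchymal markers went from 4267 to 13365 CPM and proliferation markers from 66.8 to 688 CPM. Epithelial markers went from 1561 to 292 CPM and basal markers from 1049 to 29.9 CPM. The part of these markers was not tested. Igfbp7 was 1861 to 5257 CPM in these cells over the 4 groups.

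**Figure D4:**
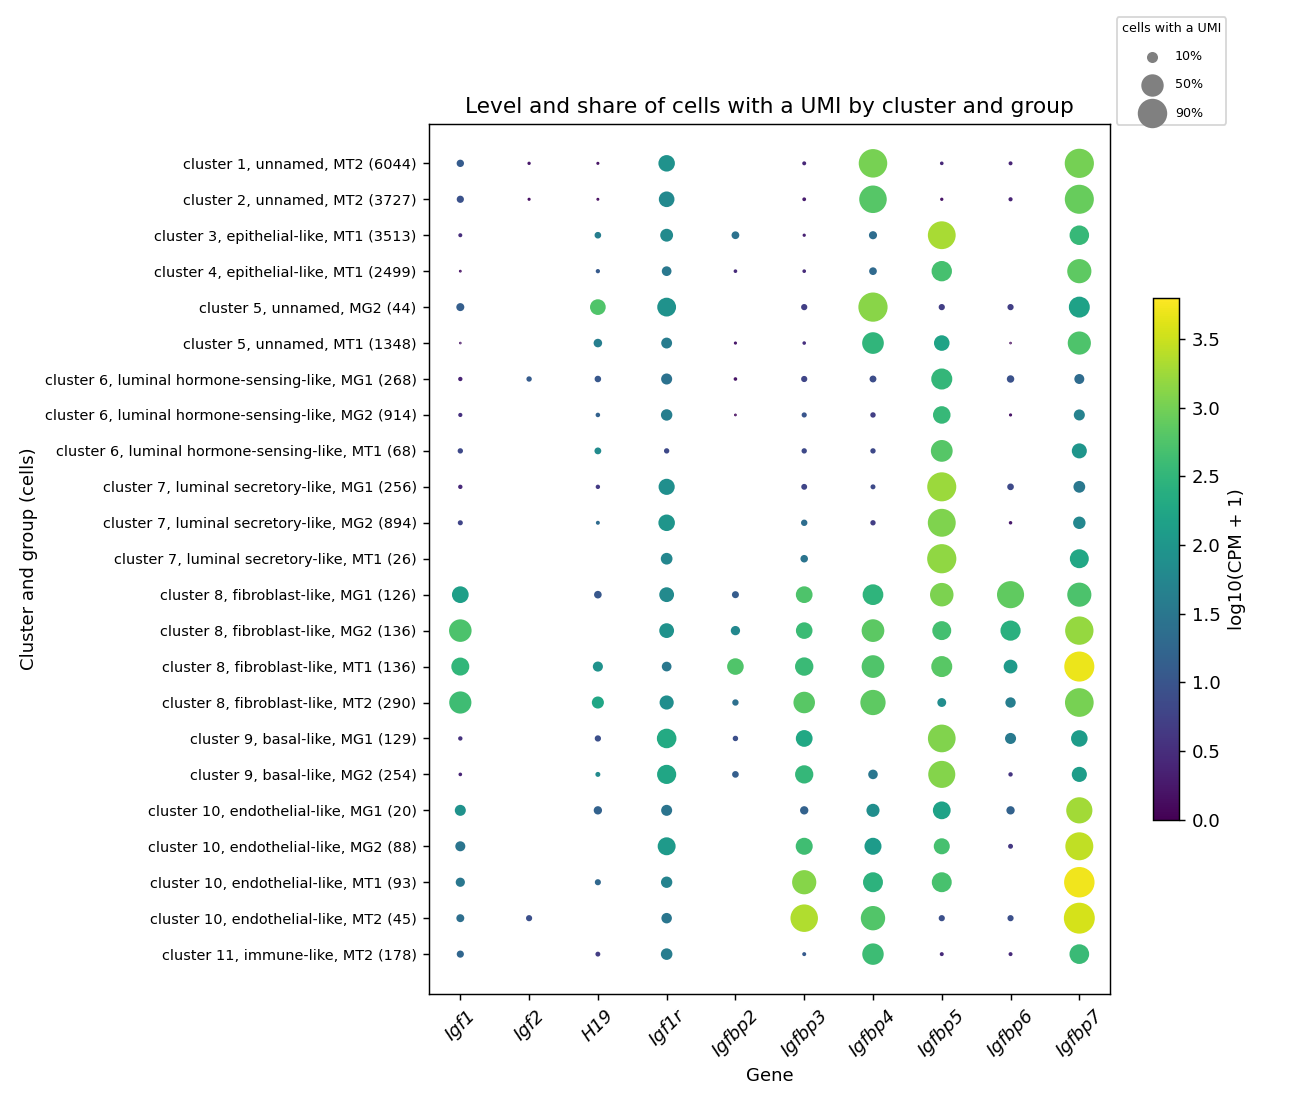
Each gene by cluster and group with 20 or more cells; color is log10(CPM + 1) and dot area is the share of cells with a UMI. Igf1 and Igfbp6 stand out in fibroblast-like cells. Igfbp4 is high in clusters 1, 2 and 5 and in fibroblast-like cells. Over all groups it is also at 378 CPM in immune-like and 245 CPM in endothelial-like cells. Igfbp5 is high in luminal secretory-like and basal-like cells of the glands, in cluster 3 and in the fibroblast-like cells of MG1. It is lower in hormone-sensing-like cells.

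Within fibroblast-like cells, 6 of 9 genes were called in MT1 against MG1 (background 37.4% of 3916 genes) and 3 of 9 in MT2 against MG2 (background 21.1%). In mouse 1, 3 rose (16.6% of genes) and 3 fell (20.9%), and in mouse 2, 1 rose (8.99%) and 2 fell (12.2%). Libraries did not overlap for 4 of 9 genes in each mouse (40.4% and 55.3% of genes). Igfbp6 fell in both mice. At a finer clustering, 126 MG1 and 124 MG2 cells lay in one sub-cluster and 103 MT1 and 286 MT2 cells in another, so the contrast also compares sub-clusters. Epithelial markers summed to 2231 and 1285 CPM in the glands and to 2358 (MT1) and 234 CPM (MT2) in the tumors, all 9 with a UMI except in MT2 (5 of 9). Their part in these results was not tested.

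Igfbp6 in these cells measured 1003 and 808 CPM in MG1, 286 and 342 CPM in MG2, 45.3, 206, 95.1, 144 and 36.6 CPM in MT1, and 26.4, 18.4 and 84.3 CPM in MT2. Both tumors lay below both glands. It fell by 2.96 on the log2 scale in mouse 1 (SE 0.40, adjusted p = 4.71e-06) and by 2.83 in mouse 2 (SE 0.45, adjusted p = 5.17e-05). Igfbp5 fell by 2.86 in mouse 2 (SE 0.52, adjusted p = 2.27e-04) and by 1.09 in mouse 1 (SE 0.42, adjusted p = 0.0459), where MT1 and MG1 overlapped. The mouse 1 call of Igfbp5 ended under DESeq2 (-1.14), at clustering resolution 1.0 (-1.02), in libraries with 20 or more cells (-1.10), and without any one of MG1 replicate 2, the MG2 libraries, MT1 replicates 1 to 4 and MT2 replicate 2 (-1.10 to -0.86).

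H19 in fibroblast-like cells was 281, 87.2 and 180 CPM in MT2 and 0 UMIs in both MG2 libraries, at least 20.7-fold higher. In MT2 replicate 3, 33 of the 47 UMIs in these cells lay in 1 cell. This was the opposite direction to its change outside the stroma of the same tumor. In MT1 it was 136, 96.0, 68.0, 129 and 36.6 CPM against 0 and 52.5 CPM in MG1, with overlap and a log2 fold change of 2.57 (SE 0.87, adjusted p = 0.0231). That call was lost under DESeq2, without MG1 replicate 1 (0.78) and without MT1 replicate 4, and the 6.75 fitted without MG1 replicate 2 is no bound, since the MG1 library left had 0 UMIs.

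Igfbp2 and Igfbp7 rose in MT1 fibroblast-like cells. Igfbp2 measured 16.4 and 10.5 CPM in MG1 and 45.3, 1042, 938, 215 and 275 CPM in MT1, a log2 fold change of 5.14 (SE 0.86, adjusted p = 7.15e-05). In MT1 replicate 2, 1 cell held 43 of the 176 Igfbp2 UMIs of MT1 fibroblast-like cells. Igfbp7 measured 587 and 976 CPM in MG1 and 3849, 6293, 5886, 4234 and 4597 CPM in MT1, a log2 fold change of 2.70 (SE 0.31, adjusted p = 8.22e-07). In mouse 2 the changes were -1.49 and -0.75 and were not called. The Igfbp7 libraries of mouse 2 did not overlap (1777 and 2111 CPM in MG2, 1069 to 1299 CPM in MT2), and it was called lower under RLE size factors and DESeq2 (-0.82 in both) and without MG1 replicate 1 or 2 (-0.76 and -0.78). The difference between the mice, a contrast added after the data were seen, was called for these 2 of the 9 genes (6.63 and 3.45) where 4.01% of genes were called, 2.89% higher, and that of Igfbp2 ended without MG2 replicate 2 (5.69). Calls were gained for H19 without MG1 replicate 1 (-6.85, a fit over 0 UMIs in MG2), for Igfbp3 without MG1 replicate 1 (-3.09) or with no low-count filter (-2.22), and for Igfbp5 without MT2 replicate 3 (3.03). In MT1 and MG1 fibroblast-like cells, mural markers summed to 276 and 69.5 CPM, basal markers to 1201 and 342 CPM and proliferation markers to 363 and 38.6 CPM. In MT2 and MG2, mural markers summed to 142 and 155 CPM, basal markers to 406 and 337 CPM and proliferation markers to 708 and 233 CPM. The part of these markers was not tested in either mouse.

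Igf1 did not pass in fibroblast-like cells, at 0.91 (95% interval 0.05 to 1.78, adjusted p = 0.106) in mouse 1 and -0.52 (-1.29 to 0.24) in mouse 2, although mouse 1 was called higher without MT2 replicate 2 (0.99). Igfbp3 in MG1 was 164 CPM in replicate 1 and 2488 CPM in replicate 2. In replicate 2, 1 cell held 112 of the 287 Igfbp3 UMIs of MG1 fibroblast-like cells. The Igfbp3 fall of 1.62 on the log2 scale in mouse 1 turned without MG1 replicate 2. It was then 1.30 above MG1 and not called. Its call also ended under DESeq2 (-1.75), in libraries with 20 or more cells (-1.56) and without any one of MT1 replicates 1 to 4 (-1.56 to -1.36).

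**Figure D5:**
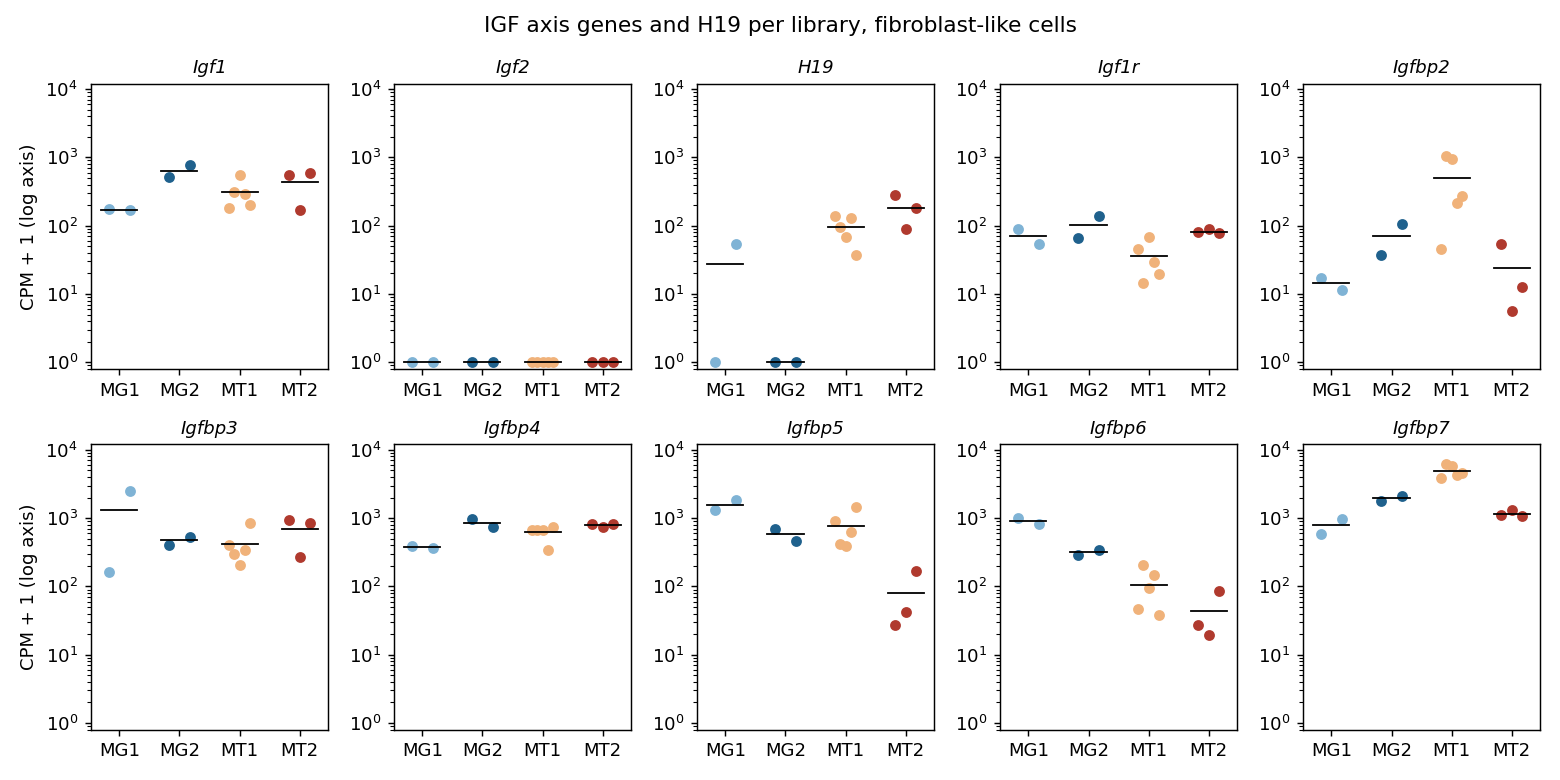
CPM + 1 of each gene (log axis) in fibroblast-like cells of each library; points are libraries and bars are group means. Igfbp6 is lower in every tumor library than in every gland library, and Igfbp7 is highest in MT1.

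Among 30 other genes of the IGF pathway, 28 were tested; 8 rose and 9 fell in MT1 against MG1 (32.2% and 27.1% of all genes), and 6 rose and 10 fell in MT2 against MG2 (32.7% and 34.3%). The median log2 fold change was -0.16 in mouse 1 and -0.04 in mouse 2, beside 0.11 and -0.05 over all genes. Stc2, which inhibits PAPP-A, fell by 4.98 and 9.81 in mouse 1 and mouse 2, and Grb10, an adaptor that dampens receptor signaling, fell by 4.15 and 6.48. Htra1, a protease that cuts binding proteins, rose by 3.34 and 4.33, and Igf2bp2, an RNA-binding protein, by 2.40 and 3.40. Stc1, a relative of Stc2, was at -2.06 and 3.88, and Igf2bp3 at 7.29 and -1.38. MG1 had 0 UMIs of Igf2bp3, so its mouse 1 value is a fit over no counts, and MT1 was at least 3.49-fold higher with MG1 at 3 counts over the group. MT1 and MT2 held only 3 and 1 UMIs of Grb10, with pooled levels 18.4-fold (exact 95% interval 4.58 to 105) and 180-fold (30.3 to 7317) higher in their glands. The Igf2bp3 call of mouse 2 ended under DESeq2 (-1.38), with no low-count filter (-1.27), with stromal cells kept in (-1.23), and without any one of the MG2 libraries, MT1 replicates 1, 2, 3 and 5 and MT2 replicates 1 and 2 (-1.40 to -0.91). Its mouse 1 call ended without MG1 replicate 1, and DESeq2 fitted 4.29. Igf2bp2 in mouse 1 was 3.92 without MG1 replicate 1. With stromal cells kept in, Htra1 and Igf2bp2 in mouse 1 were 2.16 and 1.55, and Grb10 and Stc1 in mouse 2 were -2.21 and 1.59.

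Of 24 imprinted genes other than H19 and Igf2, 16 were tested; 5 rose and 8 fell in mouse 1 (32.2% and 27.1% of all genes), and 4 rose and 9 fell in mouse 2 (32.7% and 34.3%). Their median log2 fold change was -0.71 in mouse 1 and -2.39 in mouse 2, beside 0.11 and -0.05 over all genes. Peg3 changed by -7.51 (2 UMIs in MT1, 205-fold higher in MG1, exact 95% interval 54.6 to 1728) and -6.66, Meg3 by -3.87 and -3.76, and Rian, which lies in the same cluster as Meg3, by -3.94 and -3.51. The Rian call of mouse 1 ended without MG1 replicate 2 (-2.58). Gatm, which makes a creatine precursor, changed by 2.56 and 4.99, and its mouse 1 call ended without MG1 replicate 1 (2.62). Cdkn1c, a cell cycle inhibitor in the imprinted region next to H19, was at 1.70 and -6.10, with 3 UMIs in MT2 (96.1-fold higher in MG2, exact 95% interval 31.2 to 479.9). The mouse 1 value was 11.13 without MG1 replicate 1, where the MG1 library left had 0 UMIs, and 1.03 with stromal cells kept in. With stromal cells kept in, Cdkn1c in mouse 2 was at -2.68, Rian at -1.77, and Meg3 at -0.79 and not called.

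The genes with the most similar pattern over 23 cluster and group profiles were named by Pearson r of log2(CPM + 10), as a description; the profiles share libraries and depth. They were Lum, Srpx and Abi3bp for Igf1 (r = 0.93, 0.92 and 0.91), Oaf, Ppic and Vim for Igfbp4 (0.94, 0.93 and 0.93), and Col4a2, Col4a1 and Sparc for Igfbp7 (0.92, 0.91 and 0.89). Igfbp6 was nearest to Dpep1, Pi16 and Nova1 (0.96, 0.95 and 0.95) and Igfbp5 to Skil, Map7 and Fxyd3 (0.90, 0.90 and 0.89). Igfbp3 was nearest to Ttc28, Grb10 and Tfpi (0.88, 0.87 and 0.86) and Igf1r to Chd1, Rbm15 and Fbl (0.81, 0.81 and 0.81). H19 had the weakest likeness of those given, to Rnf26, Slc20a2 and Fam189b (0.73, 0.73 and 0.72).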

How the data were processed

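Per the labels and the study's methods, the authors aligned Drop-seq reads with STAR to GRCm38.p6, counted UMIs with the Drop-seq tools and removed cells with extreme gene numbers or high mitochondrial shares. The deposited table holds raw UMI counts by gene and cell, and 0 of its columns were without a library. Libraries came from 1 tissue of 1 mouse each, were numbered in accession order and pair nothing; gland and tumor were paired by the mouse in the labels. Libraries shared at most 7 barcodes. Clusters were made in scanpy 1.11.5 by Leiden (leidenalg 0.10.2; 3000 variable genes without the 10 members, 30 components, 20 neighbours, resolution 0.6) and named from marker lists; the names are rebuilt, not the authors'. A doublet caller picked 44 cells (0.208%), which is not a working call, and no cell was removed. Sums per library entered edgeR 4.0.16 (R 4.3.3; quasi-likelihood, TMM, filterByExpr, Benjamini-Hochberg over all genes), and fibroblast-like sums in libraries with 10 or more such cells. The SE is the absolute log2 fold change over the square root of F, and intervals of log2 fold changes are normal intervals from that SE. Intervals of shares are exact Clopper-Pearson and, like the floor of 3 counts, cover counting error only. Named genes of the other lists are those called in both mice, up to 6 by the smaller absolute change. For members that passed the filter, the 3 genes of most similar pattern are named, except for Igfbp2, whose result is not reported here. The members and lists were chosen with earlier results of these data known. The tests were checked on simulated data.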

Additional observations from a re-analysis of the deposited data

Results flagged for a closer look

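The change from gland to tumor differed between the mice by the interaction contrast for H19 (8.21, log2 fold change in mouse 1 minus mouse 2), Igfbp2 (9.08 as fitted over 0 UMIs in MT2, at least 7.46 with MT2 at 3 counts over the group), Igfbp4 (-1.09), Igfbp5 (7.19), Igfbp6 (-7.99) and Igfbp7 (-1.06) outside the stroma. The Igfbp4 and Igfbp7 calls ended without MG1 replicate 1 (-0.41 and -0.05) and under other settings. In fibroblast-like cells it differed for Igfbp2 (6.63) and Igfbp7 (3.45), by a contrast added after the data were seen.

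Among 18 gene and cell sets of 5 MT1 libraries, 2 had 1 library apart from the others by Dixon's test, which chance alone gives in about 1 of 20 sets. Igfbp6 was at 0.196 CPM in MT1 replicate 4 outside the stroma, which is 1 UMI, and at 0 in the others, where any single UMI passes this test, so that nothing is read from it. Igfbp4 was at 344 CPM in fibroblast-like cells of MT1 replicate 4, below the other MT1 libraries. The Igfbp4 change of mouse 1 in these cells was 0.68 and not called. It was called higher without MT1 replicate 4 (0.87) and without MT2 replicate 2 (0.76).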

How the results depend on the processing

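DESeq2 changed the number of these genes called from 0 to 3 in the fit with the mouse as block (the replicate block) and from 6 to 3 in fibroblast-like cells of mouse 1; the cause was not tested. The fibroblast-like difference between the mice ranged from 1 to 4 genes when each library was left out. All other counts stayed within 1.5 times of the count reported, under every alternative run.

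Directions turned only for values that the edgeR test did not call, apart from Igf1 in mouse 2 and Igfbp3 in fibroblast-like cells of mouse 1. With stromal cells kept in, mouse 2 gave -0.36 for Igf1 and -2.22 for Igfbp6, the difference between the mice -1.37 for Igfbp3, and the fit with the mouse as block -0.96 for Igf1 and 0.17 for Igfbp2. Without the replicate block Igfbp2 was 2.42, and the block changed no call. In fibroblast-like cells Igfbp4 in mouse 2 was 0.0056 with no low-count filter, and the Igfbp6 difference was 0.0105 in libraries with 20 or more cells.

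Leaving out an MG1 or MG2 library leaves 1 library in that arm, which the fit assumes to vary like the other groups. Leaving out each library gave these ranges where a direction turned. In mouse 1, Igf1 ran from -0.60 to 6.08, Igf1r from -0.79 to 1.31 and Igfbp5 from -0.11 to 1.31; in mouse 2, Igf1r from -0.0197 to 0.312. The difference between the mice ran from -2.14 to 4.51 for Igf1 (its 6.08 and 4.51 are fits over an MG1 library at 0 UMIs) and from -0.90 to 1.18 for Igf1r, and MT1 against MT2 from -0.0374 to 0.551 for Igfbp3. In fibroblast-like cells, Igfbp3 in mouse 1 ran from -2.55 to 1.30, and in mouse 2 Igf1r from -0.76 to 0.29 and Igfbp4 from -0.269 to 0.0578. The difference there ran from -3.09 to 0.78 for Igfbp3 and from -0.46 to 0.81 for Igfbp6.

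MG1 replicate 2, with 105 cells, and the sparse counts of Igfbp2 and Igfbp6 limited the precision of the mouse 1 values. Igf2 was too sparse for a fit.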
